A study of Mus musculus with 2 samples.

Results

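Type I, III and V collagen are the fibrillar collagens of liver scar, and the 5 genes described here encode their chains: Col1a1 and Col1a2 (type I), Col3a1 (type III), and Col5a1 and Col5a2 (type V). The 5 were taken by symbol from the 32285 genes of the files and followed across marker-gated cell types in non-parenchymal liver cells. The samples were 2 single-cell libraries, 1 from Mfap2+/+ mice (wild type) and 1 from Mfap2-/- mice, which lack the microfibril-associated glycoprotein Mfap2. Both groups had received carbon tetrachloride (CCl4), a liver toxin that causes fibrosis, by intraperitoneal injection for 8 weeks, so neither library comes from an uninjured liver. Age, sex, strain, the number of animals behind each library and whether the deletion is limited to a cell type are not given in the sources used here. With 1 library per genotype there is no replicate check and no p-value, and genotype, animal and library preparation cannot be told apart.

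Type I collagen is a triple helix of α1 chains from Col1a1 and an α2 chain from Col1a2. Type III collagen consists of α1 chains from Col3a1 alone, and type V collagen, which starts fibrils and limits their width, is mostly built from Col5a1 and Col5a2 chains. In injured liver these chains are known to be made mainly by activated hepatic stellate cells, the vitamin A-storing pericytes of the sinusoid, and by portal fibroblasts.

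In these libraries the type I and III chains and Col5a1 were concentrated in a few percent of the cells, those rich in mesenchymal marker RNA. Col5a2 differed: endothelial cells carried it too, at 58.3 CPM (UMIs per 1e+06 UMIs of a cell class) in the wild type and 66.1 CPM in the Mfap2-/- library, with hardly any Col5a1. Between the libraries 0 of the 5 chains were past 1.5-fold in the mesenchymal cells, where 16.9% of 15877 genes were higher and 6.01% lower by that much, although Col5a1, Col5a2 and Col1a1 each passed it under at least 1 alternative, Col5a1 at 0.59 (log2) without the 5 richest cells of each library and Col5a2 at 0.61 in the gate of 10 marker UMIs above every other class. The balance within type I did differ: 0.917 Col1a1 molecules were counted per Col1a2 molecule in the wild type and 1.18 in the Mfap2-/- library.

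On mouse build GRCm38, Col1a1 (ENSMUSG00000001506) spans 94936224 to 94953042 of chromosome 11, Col1a2 (ENSMUSG00000029661) 4504814 to 4541544 of chromosome 6, and Col5a1 (ENSMUSG00000026837) 27886425 to 28039514 of chromosome 2, each on the forward strand. Col3a1 (ENSMUSG00000026043, forward strand, 45311538 to 45349706) and Col5a2 (ENSMUSG00000026042, reverse strand, 45374321 to 45503282) are neighbours on chromosome 1, with their 3′ ends facing each other across 24614 bases. Of the transcripts overlapping the 5 genes, 2 on the strand opposite Col5a1 are listed in the files: the wild-type and Mfap2-/- cells held 4 and 2 UMIs of 2810430I11Rik, and 0 and 1 of Gm13372.

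Because the chains were counted together in the same cells, the 250 bases before the RefSeq start of those in the promoter table (GRCm38.p6, forward strand, 5′ to 3′) are shown. Capitals mark 3 motifs, searched on both strands: the CCAAT box (CCAAT or ATTGG), the TATA box (TATAAA or TTTATA) and the GC box (GGGCGG or CCGCCC).
Col1a2 (chr6:4505368-4505617): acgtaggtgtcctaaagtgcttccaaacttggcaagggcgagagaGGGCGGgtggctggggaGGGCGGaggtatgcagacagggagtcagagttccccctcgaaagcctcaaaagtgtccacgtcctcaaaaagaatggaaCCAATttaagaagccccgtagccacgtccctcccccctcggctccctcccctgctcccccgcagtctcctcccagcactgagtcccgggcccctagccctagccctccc
Col3a1 (chr1:45311288-45311537): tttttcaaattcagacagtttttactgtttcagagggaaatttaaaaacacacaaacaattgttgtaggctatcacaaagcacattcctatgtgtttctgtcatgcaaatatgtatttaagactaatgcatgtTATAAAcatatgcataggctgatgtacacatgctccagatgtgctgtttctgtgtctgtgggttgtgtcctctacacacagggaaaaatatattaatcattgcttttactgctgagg
Col5a1 (chr2:27886175-27886424): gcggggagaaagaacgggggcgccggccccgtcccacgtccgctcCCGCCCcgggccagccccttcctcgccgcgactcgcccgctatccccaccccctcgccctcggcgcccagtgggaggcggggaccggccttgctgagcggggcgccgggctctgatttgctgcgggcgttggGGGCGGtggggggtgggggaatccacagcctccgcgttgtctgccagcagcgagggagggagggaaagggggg

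The 3 windows held different motifs. The Col1a2 window had a CCAAT box 109 to 105 bases before the start and GC boxes at 205 to 200 and 188 to 183 bases. This window lies inside the Col1a2 span given above, which begins at 4504814, so the annotations differ in the start of that gene. The Col3a1 window had a TATA box 117 to 112 bases before the start, and the Col5a1 window had GC boxes at 73 to 68 and 205 to 200 bases. Among 32851 RefSeq windows of this length, 33.8% held a CCAAT box, 12.4% a TATA box and 32.7% a GC box, so none of the 3 is rare. A match is a description of these letters and not a binding site. Col1a1 and Col5a2 were not matched in that table.

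In all, 82499307 UMIs (unique molecular identifiers, each marking 1 captured RNA molecule) from 11783 barcodes were counted in the wild type and 118226367 from 12872 barcodes in the Mfap2-/- library. Median depth was 4685 and 6511 UMIs per barcode, 1.39 times as high in the Mfap2-/- library. After filters and removal of likely doublets, 10336 and 11428 cells remained. The targeted gene matched the labels, with 211 Mfap2 UMIs in the wild-type cells and 2 in the Mfap2-/- cells. The libraries shared 40 barcode sequences, 0 of them among the mesenchymal cells. The 3′ chemistry counts molecules and not fragments along the transcript, so levels of different genes are compared without a length correction. Whether intronic reads were counted is not given in the sources used here, so comparisons between genes as unlike in length as Col5a1 (153090 bases) and Col1a1 (16819 bases) carry that limit. Intervals are 95% and cover counting error only.

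Mesenchymal cells were defined by at least 3 UMIs of Dcn (decorin), Pdgfrb (a mural and stellate cell receptor), Lrat (retinol esterification in stellate cells) and Reln (reelin, a stellate cell marker) as a sum. This gate held 583 wild-type cells (5.64%) and 596 Mfap2-/- cells (5.22%). It was a mixture. In 330 and 348 of these cells the marker total was 3 to 9, and 89.7% and 89.1% of those held more markers of another class. The 5 collagen chains summed to 31.4 CPM in wild-type cells with exactly 3 marker UMIs, against 32.4 CPM in cells with 0 marker UMIs. The same 2 values were 65.3 and 51.5 CPM in the Mfap2-/- library. So the lower end of the gate carried collagen at about the level of cells with no marker at all.

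The level climbed steeply once the markers were abundant. Wild-type cells with 10 to 29 marker UMIs had 131 CPM of the 5 chains, those with 30 to 99 had 2995 CPM and those with at least 100 had 4337 CPM. The Mfap2-/- values were 780, 3349 and 4913 CPM. The cells with at least 10 marker UMIs, 253 wild-type and 248 Mfap2-/- cells, therefore held most of the chain UMIs, and the main levels and ratios are given for them beside the wider gate. Other classes' markers still outweighed the mesenchymal ones in 11.9% and 14.1% of them, against 55.9% and 57.9% of the wider gate.

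**Figure D1:**
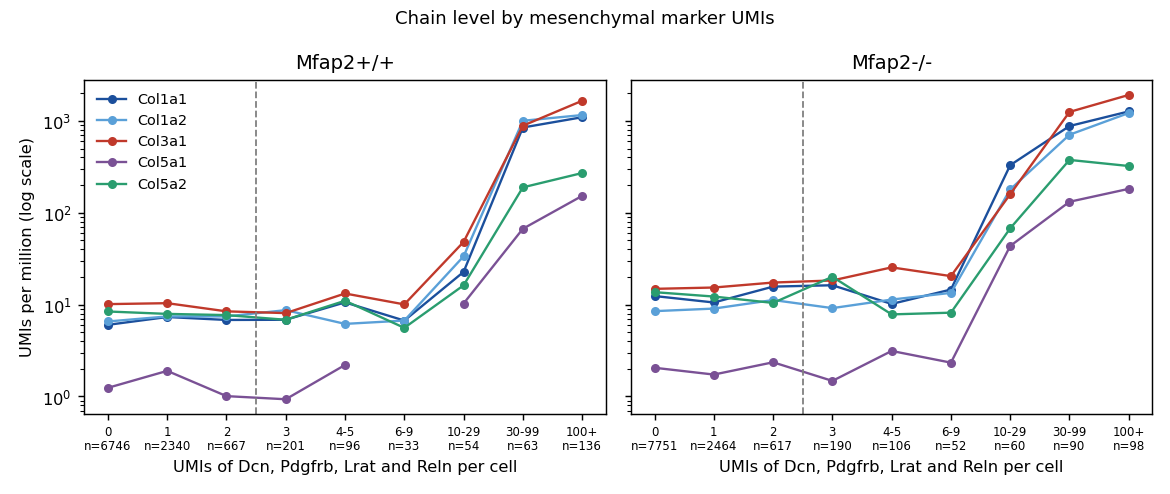
Level of each chain (y axis, CPM, log scale) in cells grouped by their UMIs of Dcn, Pdgfrb, Lrat and Reln (x axis, with the number of cells), in each library; the dashed line marks the gate of at least 3, and a group at 0 has no point. All 5 chains stay flat up to 9 marker UMIs, and their sum reaches 4337 CPM (wild type) and 4913 CPM (Mfap2-/-) in the richest group.

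The mesenchymal label was checked with 10 genes that the gate did not use, all of which were higher in the cells with at least 10 marker UMIs than outside the gate. Colec11 (collectin-11), a stellate cell lectin, stood at 538 CPM in the wild-type cells and 324 CPM in the Mfap2-/- cells, against 6.82 and 4.62 CPM in cells outside the gate. Des (desmin, an intermediate filament of stellate and muscle cells) stood at 76.6 and 65.8 CPM, against 1.42 and 1.83 CPM. In cells with 3 to 9 marker UMIs, Colec11 was at 9.56 and 10.1 CPM and Des at 3.45 and 4.84 CPM, close to the cells outside. Rgs5, a pericyte gene, was the exception, at 150 and 105 CPM in the cells with 3 to 9 marker UMIs against 16.2 and 9.44 CPM outside.

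Of all UMIs of the 5 chains, the wider gate held 88.3% (87.8 to 88.8) in the wild type and 81.4% (80.9 to 81.9) in the Mfap2-/- library. The cells with at least 10 marker UMIs, 2.45% and 2.17% of all cells, held 87.0% and 79.4%. Most of the remainder was spread thinly over the other classes. Most gated cells also held 3 or more UMIs of another class's markers, 468 of 583 and 484 of 596, and 158 of 253 and 162 of 248 of those with at least 10 mesenchymal marker UMIs. Without such cells the gate held 17.3% and 16.5% of the chain UMIs. The share held was alike for Col1a1, Col1a2 and Col3a1, between 90.1% and 91.0% in the wild type and between 83.5% and 85.4% in the Mfap2-/- library. It was lowest for Col5a2, at 67.0% and 60.4%, and endothelial cells held 22.9% and 26.4% of that chain.

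Col1a1, the type I α1 chain, stood at 319 CPM (309 to 330) in wild-type mesenchymal cells and 375 CPM (365 to 386) in Mfap2-/- ones, and at 683 and 815 CPM in those with at least 10 marker UMIs. In the 223 and 212 of the latter whose mesenchymal markers outweighed every other class's, it was at 1231.5 and 1503.5 CPM. The 5 chains summed to 4757 and 5460 CPM there. The pooled levels of both gates, and their distance from other classes, thus depend on the mixed cells admitted. Outside the mesenchymal and endothelial gates it was at 6.55 CPM in the wild type and 12.2 CPM in the Mfap2-/- library. These were 8660 and 9318 cells, of which 3640 and 4373 passed no gate or a mixed one and so have no class. B cells, which do not make this collagen, served as background. Their level was 6.72 CPM (3.98 to 10.6) in the wild type and 11.2 CPM (8.64 to 14.3) in the Mfap2-/- library, 47.6 and 33.5 times below the wider mesenchymal gate. Below the mesenchymal cells, the Col1a1 intervals of the next 3 classes in the order of levels overlapped those of the B cells in both libraries, so no further order can be read.

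Col1a2, the α2 chain, stood at 348 CPM (338 to 359) and 318 CPM (309 to 328) in the wider gate, and Col3a1, the type III chain, was the most abundant at 447 CPM (435 to 459) and 502 CPM (491 to 514). In the cells with at least 10 marker UMIs these were 747 and 692 CPM for Col1a2 and 957 and 1088 CPM for Col3a1. The order of the chains in the wild type was thus Col3a1, Col1a2, Col1a1, Col5a2 and Col5a1, and in the Mfap2-/- library Col1a1 and Col1a2 changed places. None of the neighbouring intervals in either order overlapped in the wider gate.

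Col5a1 was the scarcest chain, at 40.9 CPM (37.3 to 44.7) and 54.2 CPM (50.4 to 58.2) in the wider gate. Its level was 87.2 and 117 CPM in the cells with at least 10 marker UMIs. In the other named classes with at least 100 cells it was at most 3.46 CPM. Its sister chain Col5a2 stood at 81.9 CPM (76.9 to 87.3) and 120 CPM (114 to 126) in the wider gate, and at 168 and 249 CPM in the cells with at least 10.

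**Figure D2:**
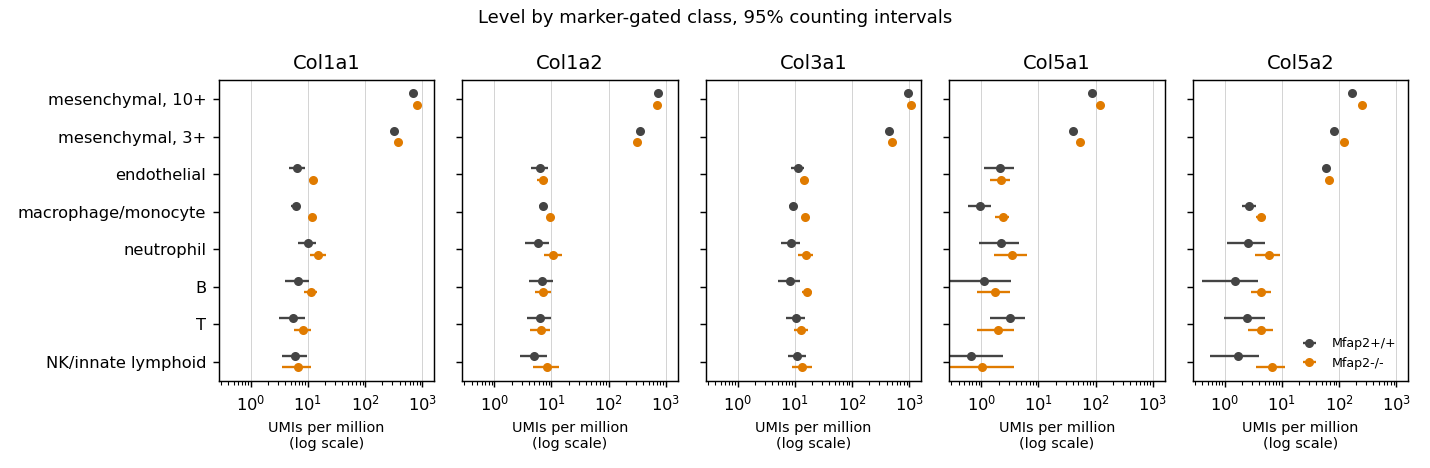
Level of each chain (x axis, CPM of the class, log scale) in the marker-gated classes with the most cells (y axis), with 95% counting intervals; grey is the Mfap2+/+ and orange the Mfap2-/- library. Col5a2 in endothelial cells, at 58.3 and 66.1 CPM, is the one point outside the mesenchymal rows that stands far above the other classes.

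Endothelial cells, gated on Ptprb, Kdr, Stab2 and Cdh5, numbered 1093 and 1514. Col5a2 stood at 58.3 CPM (52.2 to 65.0) there in the wild type and 66.1 CPM (61.4 to 71.0) in the Mfap2-/- library, 39.1 and 15.1 times the level of B cells. The other 4 chains of endothelial cells lay between 2.12 and 11.3 CPM in the wild type and between 2.18 and 14.1 CPM in the Mfap2-/- library, in the range of the immune classes. A Col5a2 UMI was found in 192 of 1093 wild-type endothelial cells (17.6%) and in 297 of 1514 Mfap2-/- ones (19.6%). A Col1a1 UMI was found in 3.11% and 8.45% of them. The B cell shares were 0.562% and 2.24% for Col5a2, at median depths of 3509 and 4803 UMIs against 4551 and 6344.5 in endothelial cells. After thinning each cell to 1000 UMIs, which left out 63 and 62 endothelial and 3 and 3 B cells, the Col5a2 shares were 5.53% and 6.06% in endothelial and 0.141% and 0.360% in B cells.

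The proportions of the chains in endothelial cells differed from those in the other cells. In endothelial cells there were 8.95 Col5a2 UMIs per Col1a1 UMI (6.36 to 12.9) in the wild type and 5.36 (4.46 to 6.49) in the Mfap2-/- library. The ratio was 0.256 and 0.319 in mesenchymal cells, and 0.425 and 0.408 in all cells outside both gates. Conversely, Col5a1 per Col5a2 was 0.0363 (0.0185 to 0.0642) and 0.0329 (0.0210 to 0.0494) in endothelial cells against 0.499 and 0.452 in mesenchymal cells. Endothelial cells with no UMI of any mesenchymal marker had Col5a2 at 59.8 CPM in the wild type and 66.5 CPM in the Mfap2-/- library, close to the whole class.

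The share of cells with a UMI was highest for Col3a1 and lowest for Col5a1 in both libraries before thinning, and higher in the Mfap2-/- library for each chain, Col1a2 included, whose level was lower there. In the wider gate a Col3a1 UMI was found in 47.0% (42.9 to 51.1) of wild-type and 56.4% (52.3 to 60.4) of Mfap2-/- cells, a Col1a1 UMI in 41.5% and 49.7%, a Col1a2 UMI in 42.2% and 46.3%, a Col5a2 UMI in 35.8% and 41.1%, and a Col5a1 UMI in 26.8% and 33.9%. In the cells with at least 10 marker UMIs these were 86.6% and 91.5% for Col3a1, 80.2% and 86.7% for Col1a1, 79.8% and 85.1% for Col1a2, 71.5% and 80.2% for Col5a2 and 58.9% and 75.4% for Col5a1. All 5 chains were found together in 118 (46.6%) and 162 (65.3%) of those cells, and none of them in 14 (5.53%) and 10 (4.03%). B cells had a Col3a1 UMI in 2.81% and 7.80%, and a Col1a1 UMI in 2.53% and 5.29%. The Mfap2-/- library was deeper, with medians of 14444 and 16495.5 UMIs in the wider gate, and its background shares were higher too. After thinning to 1000 UMIs, which left out 18 and 10 cells of the wider gate, Col3a1 was found in 23.7% and 26.6%, Col1a1 in 16.1% and 21.8%, Col1a2 in 18.1% and 20.8%, Col5a2 in 7.43% and 10.9% and Col5a1 in 7.61% and 6.83%. Those of Col5a1 no longer had the higher share in the Mfap2-/- library, and each pair of thinned shares lies close enough for its counting intervals to meet.

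The comparison the design implies is of Mfap2-/- with wild type in the cells that make these chains. Summed over the 5 chains the wider gate held 1238 CPM in the wild type and 1370 CPM in the Mfap2-/- library, a log2 ratio of 0.15 (0.12 to 0.18). The cells with at least 10 marker UMIs held 2642 and 2961 CPM, a log2 ratio of 0.16 (0.13 to 0.20). The median log2 ratio of all genes was itself 0.13 in both sets of cells, so the sum of the chains stood close to the middle of the genes measured. With ratios centred on that median the sum was at 0.022 (-0.0093 to 0.053). No replicate bears on any of these differences. Some genes of the mesenchymal label also differed between the same cells. With at least 10 marker UMIs, the wild-type and Mfap2-/- cells had Ecm1 at 328 and 158 CPM and Rgs5 at 586 and 266 CPM. In CPM, Bgn was at 1713 and 1021, Lum at 782 and 505, Colec11 at 538 and 324, and Hgf at 475 and 777. Cygb (351 and 284 CPM), Sparc (1670 and 1398), Des (76.6 and 65.8) and Pdgfra (167 and 205) differed less. The gate gene Dcn had 27827 and 17747 UMIs, not scaled to the totals of the cells. The part of these genes in the chains' ratios was not tested.

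Chain by chain, the type V genes stood highest and Col1a2 lowest in both sets of cells. In the wider gate the log2 ratio was 0.55 (0.43 to 0.66) for Col5a2, 0.40 (0.24 to 0.57) for Col5a1, 0.23 (0.17 to 0.29) for Col1a1, 0.17 (0.12 to 0.22) for Col3a1 and -0.13 (-0.19 to -0.07) for Col1a2. With at least 10 marker UMIs these were 0.57, 0.43, 0.25, 0.19 and -0.11. With each cell thinned to 1000 UMIs this order did not hold: Col5a1 was at 0.0075 (-0.61 to 0.62), below Col1a2 at 0.12 (-0.14 to 0.38). None of the 5 chains was past 1.5-fold in either direction in either set of cells. Among all genes with at least 20 UMIs, 16.9% of 15877 were higher and 6.01% lower by that much in the wider gate. In the cells with at least 10 marker UMIs 18.6% of 14331 genes were higher and 8.71% lower. In the wider gate the ratio of Col5a2 exceeded that of 80.8% of genes, Col5a1 71.7%, Col1a1 58.5%, Col3a1 53.5% and Col1a2 30.6%.

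Outside the mesenchymal and endothelial gates the 5 chains summed to 27.5 CPM in the wild type and 43.8 CPM in the Mfap2-/- library. Each chain was higher in the latter, Col1a2 included, which was lower in Mfap2-/- mesenchymal cells. In macrophages and monocytes the sum was 26.1 and 42.9 CPM and in neutrophils 28.9 and 50.8 CPM, both classes that are not known as sources of these collagens. Background RNA was not measured apart from the cells, and its part in these and the mesenchymal values was not tested. The sum was 61.5 CPM in the Mfap2-/- cells with 3 to 9 marker UMIs and 2961 CPM in those with at least 10.

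A few cells weighed heavily on the sums. Among the cells with at least 10 marker UMIs, the 5 richest held 24.1% of the wild-type and 13.7% of the Mfap2-/- chain UMIs. The richest wild-type cell alone held 1422 chain UMIs among 102412. Leaving these 5 cells out of each library, the sums over the wider gate were 963 and 1198 CPM, a log2 ratio of 0.32 (0.28 to 0.35). Col1a1 was then at 0.48 (0.41 to 0.55) and Col1a2 at 0.026 (-0.043 to 0.095), so that Col1a2 was no longer lower in the Mfap2-/- library, and Col5a1 came to 1.51-fold higher. In the cells with at least 10 marker UMIs that also outweighed every other class's markers, Col5a2 came to 1.52-fold higher. With doublets kept, the sum was at 0.35 and Col1a2 at 0.083. Doublet removal had taken 185 of 768 wild-type and 216 of 812 Mfap2-/- cells out of the wider gate.

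**Figure D3:**
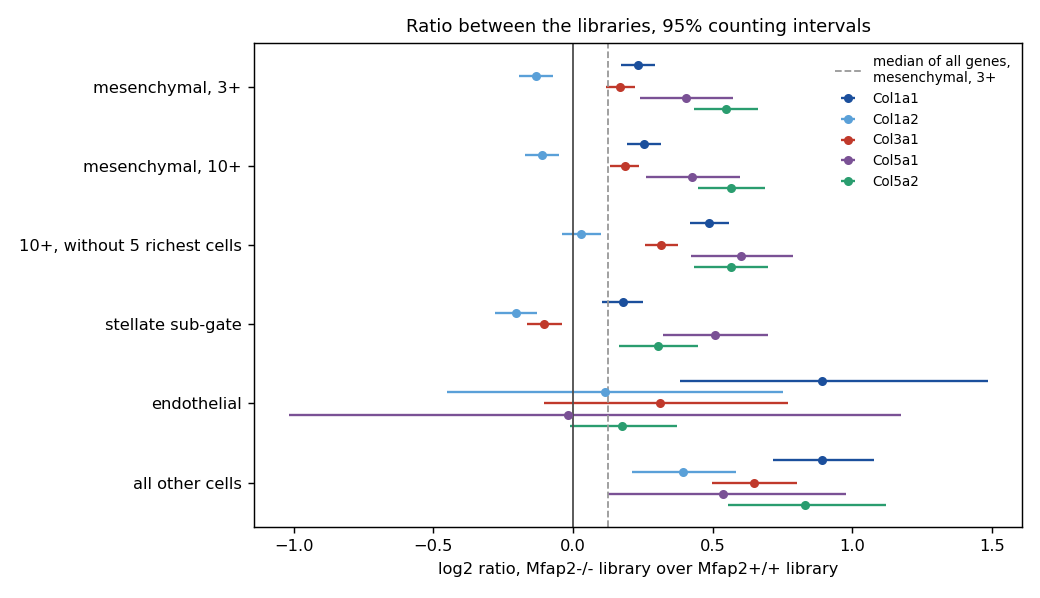
Log2 ratio of each chain, Mfap2-/- library over Mfap2+/+ library (x axis), by set of cells (y axis), with 95% counting intervals; the dashed line is the median of all genes in the wider gate, 0.13. Col1a2 lies left of the other chains in each of the 4 mesenchymal sets, and in the stellate sub-gate Col3a1 (-0.10) is below 0 beside Col1a2 (-0.20).

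Most cells of the gate that passed a sub-gate passed the stellate one. That sub-gate shares Lrat and Reln with the mesenchymal gate, while the others share no gene with it. The majority was thus partly set by the choice of markers. A sub-gate on Lrat, Reln, Ecm1 and Colec11 held 309 wild-type and 323 Mfap2-/- cells, more than the 253 and 248 with at least 10 marker UMIs. It needed only 2 UMIs, and Ecm1 was found in 12.6% and 11.1% of cells outside the mesenchymal gate, so it may hold other cells too. There the 5 chains summed to 1867 and 1871 CPM, a log2 ratio of 0.0032 (-0.035 to 0.041). Within that sum Col5a1 was higher, from 67.3 to 95.8 CPM (0.51), and so was Col5a2, from 123 to 153 CPM (0.31). Col3a1 was lower, from 704 to 656 CPM (-0.10), and Col1a2 from 506 to 439 CPM (-0.20). The cells of no sub-gate, 246 and 252, had Col3a1 at 217 and 404 CPM. Sub-gates for portal fibroblasts (8 and 3 cells) and vascular smooth muscle (10 and 2 cells) were too small for a comparison. Mesothelial cells, 10 and 16, had Col3a1 at 9.81 CPM (2.67 to 25.1) and 10.7 CPM (5.72 to 18.4), about the level of the cells outside the gate.

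Seen cell by cell, the Mfap2-/- library had the higher median for each chain. Among the cells with at least 10 marker UMIs, the median Col1a1 level was 429 CPM (quartiles 75.2 and 932) in the wild type and 779 CPM (155 and 1543) in the Mfap2-/- library. For Col1a2 it was 571 and 670 CPM, for Col3a1 966 and 998 CPM, for Col5a1 72.4 and 143 CPM and for Col5a2 183 and 257 CPM. The ranges of single cells overlapped almost entirely, from 0 to 9210 CPM for Col1a1 in the wild type and from 0 to 10588 CPM in the Mfap2-/- library. The tenth of cells with the most chain UMIs held 54.2% and 42.1% of them.

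**Figure D4:**
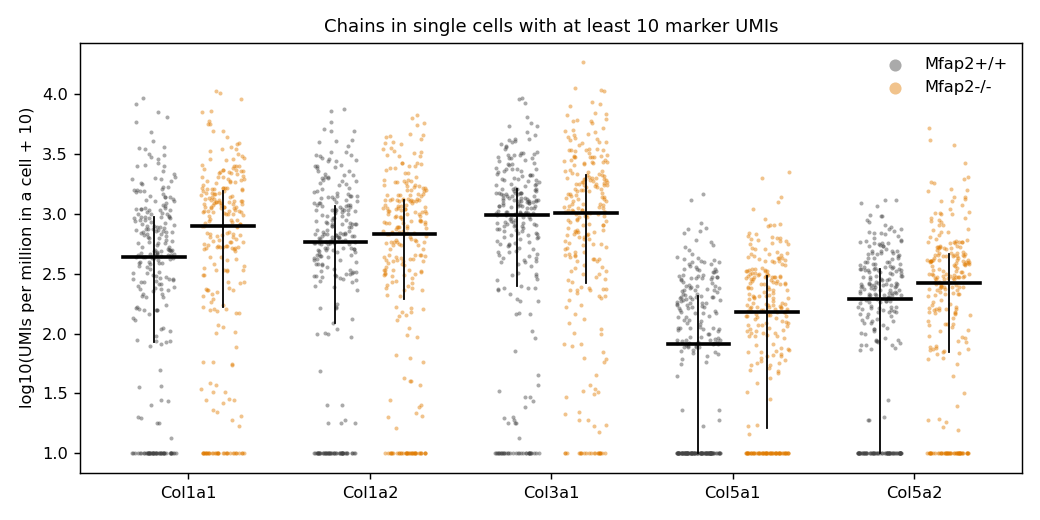
Level of each chain in single cells with at least 10 marker UMIs (y axis, log10 of CPM + 10, so that cells with none lie at 1), for Mfap2+/+ (grey) and Mfap2-/- (orange); the horizontal bar is the median and the vertical bar spans the quartiles. The clouds overlap, with the Col1a1 median at 429 CPM in the wild type and 779 CPM in the Mfap2-/- library.

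The proportion of the type I chains differed between the libraries beyond counting error. Per Col1a2 UMI there were 0.917 Col1a1 UMIs (0.877 to 0.959) in wild-type mesenchymal cells and 1.18 (1.13 to 1.23) in Mfap2-/- ones. The cells with at least 10 marker UMIs gave 0.915 and 1.18, the stellate sub-gate 0.921 and 1.20, and the cells with at least 10 marker UMIs without the 5 richest 0.850 and 1.17. A within-library ratio does not depend on total depth or on the scaling of the libraries. It also differed outside the mesenchymal and endothelial gates, where it was 0.933 (0.803 to 1.08) and 1.32 (1.19 to 1.46). Of cells with at least 10 UMIs of the pair, 41 of 130 wild-type cells held more Col1a1 than Col1a2, with a median Col1a1 share of 43.4%. In the Mfap2-/- library these were 96 of 158 cells and 53.8%. The values describe 1 library of each genotype, and a difference of capture between the library preparations was not tested.

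The difference was not particular to the type I pair. In the wider gate Col5a2 (0.55), Col5a1 (0.40) and Col3a1 (0.17) also had higher log2 ratios than Col1a2 (-0.13). Their proportions to Col1a2 were thus higher in the Mfap2-/- library too. Col5a2 per Col1a1 was 0.256 (0.239 to 0.275) in wild-type and 0.319 (0.302 to 0.337) in Mfap2-/- mesenchymal cells. In the stellate sub-gate it was 0.265 and 0.289. Col3a1 per Col1a1 was 1.40 (1.34 to 1.46) in wild-type and 1.34 (1.29 to 1.39) in Mfap2-/- mesenchymal cells, and 1.51 and 1.24 in the stellate sub-gate. Col5a1 per Col5a2 was 0.499 (0.446 to 0.557) and 0.452 (0.415 to 0.493) in the wider gate and 0.546 and 0.628 in the stellate sub-gate, the reverse order.

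The 5 chains were correlated across mesenchymal cells of each library, though 36.9% and 26.7% of the cells in the wider gate held none of them. Over the 10 pairs, the median Pearson r of log2(UMIs per 10000 + 1) was 0.70 across 583 wild-type cells and 0.76 across 596 Mfap2-/- cells. By this measure the pair of type I chains was highest, Col1a1 with Col1a2 at 0.86 and 0.91, and the type V pair Col5a1 with Col5a2 was lowest at 0.54 and 0.66. By Spearman's rho Col1a2 with Col3a1 and the type I pair were both at 0.77 and 0.80. The r was lower in the cells with at least 10 marker UMIs, with medians of 0.54 and 0.63. There Col1a1 with Col1a2 was at 0.81 and 0.85 and Col5a1 with Col5a2 at 0.33 and 0.44, and the lowest pair was Col1a2 with Col5a1 at 0.32 and 0.42. Thinned to 1000 UMIs per cell, the median in the wider gate was 0.32 and 0.38, and with at least 10 marker UMIs 0.19 and 0.25. In the latter cells, thinned, Col1a1 with Col1a2 was at 0.42 and 0.48 and Col5a1 with Col5a2 at 0.026 and 0.073. The cells share a library, its depth and its background RNA, so these correlations are descriptions. The neighbours on chromosome 1, Col3a1 and Col5a2, had an r of 0.71 and 0.77 in the wider gate. Col3a1 with Col1a1, on another chromosome, was at 0.81 and 0.89. These pairs differ in abundance, with 970 and 1669 UMIs of Col5a2 against 3782 and 5232 of Col1a1. The type I chain Col1a2 and Col3a1, whose windows above hold different motifs, had 0.84 and 0.89. Whether gene position or promoter motifs bear on these values was not tested.

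**Figure D5:**
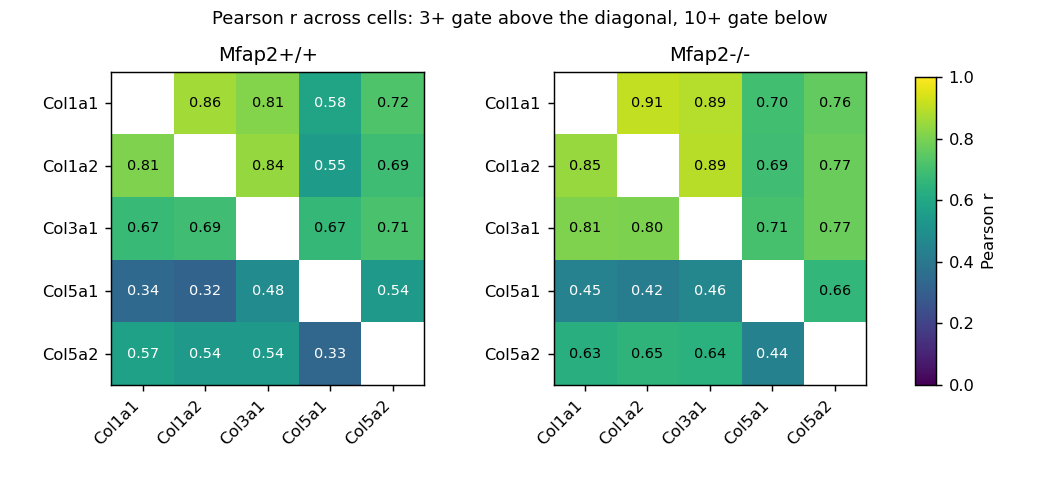
Pearson r of each pair of chains across cells of the Mfap2+/+ and the Mfap2-/- library (colour, from 0 to 1), with the gate of at least 3 marker UMIs above the diagonal and that of at least 10 below it. The type I pair has the highest value in each panel, 0.86 and 0.91 above the diagonal.

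Genes most like the 5 chains were ranked by the mean of their correlations with them, taking the lower of the libraries, among 10386 genes found in at least 10% of mesenchymal cells in each. The first 10 were Ccdc80 (0.73 in the wild type and 0.78 in the Mfap2-/- library), Bgn (0.73 and 0.77), Lum, Col6a1, Col6a3, Serping1, Lhfp, Cxcl12, Dcn and Sparc. Bgn (biglycan) and Lum (lumican) encode small proteoglycans that bind collagen fibrils, Col6a1 and Col6a3 chains of the beaded-filament collagen VI, and Sparc a collagen-binding matrix glycoprotein. Dcn was used for the gate. With at least 10 marker UMIs, Bgn, Sparc, Ccdc80, Col6a3, Col6a1 and Lum were again among the first 10 of 10551 genes, as were Fstl1, Igfbp7 and Emilin1. Least like the chains in the wider gate were Srgn, Actr3, Ezr, Klf6 and Iqgap2, with Srgn (serglycin, the proteoglycan of blood cell granules) at -0.44 and -0.43. With at least 10 marker UMIs they were Onecut2, Tspan8, Dsg2, Krt18 and Sorbs2, of which Krt18 (keratin 18, an epithelial filament) was at -0.45 and -0.52. Of the members, Col5a1 was the least like the other 4, with 0.58 and 0.69, and 53 genes outside the 5 stood closer to the group than it did.

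Of the 6 other fibril-forming collagen genes, 4 reached 20 UMIs in mesenchymal cells. Col27a1 was the most abundant, at 54.2 and 58.8 CPM (log2 ratio 0.12), and at 0.26 (0.093 to 0.44) in the cells with at least 10 marker UMIs. Col5a3, which can replace a chain of type V collagen, had 11 UMIs in wild-type and 34 in Mfap2-/- cells (1.31, 0.38 to 2.52) and was the 1 gene of this list past 1.5-fold higher, with 0 lower, where 16.9% and 6.01% of all genes were. Col24a1 was at -0.49 (-1.04 to 0.04) and Col11a2 at -0.41 (-1.29 to 0.45), both intervals including 0. With at least 10 marker UMIs, Col11a2 was at 0.53 (-0.75 to 2.06) on 8 wild-type and 14 Mfap2-/- UMIs, and the median of the 4 genes went from -0.14 to 0.40. The 3 fibril-associated collagens all lay within 1.5-fold, where 16.9% of all genes were higher and 6.01% lower: Col14a1 was at 231 and 273 CPM (0.24), Col12a1 at 17.2 and 17.7 CPM (0.04) and Col16a1 at 13.4 and 11.6 CPM (-0.22).

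Of 13 genes that modify and fold procollagen, 2 were higher and 1 lower by 1.5-fold, beside 16.9% and 6.01% of all genes. Their median log2 ratio of -0.24 compares with 0.13 over all 15877 genes. In the cells with at least 10 marker UMIs the median was -0.15, beside 0.13 over 14331 genes. P4ha1, a catalytic subunit of the enzyme that hydroxylates procollagen prolines, was at 114 CPM in the wild type and 196 CPM in the Mfap2-/- library (0.78, 0.68 to 0.87). Plod2, the lysyl hydroxylase that acts on the collagen telopeptides, was at 53.1 and 88.8 CPM (0.74, 0.60 to 0.88). Fkbp10, a chaperone of procollagen in the endoplasmic reticulum, was at 14.4 and 7.97 CPM (-0.85, -1.21 to -0.50), and Plod3 was next lowest at 28.0 and 20.8 CPM (-0.43). With at least 10 marker UMIs the count was 2 higher and 2 lower, beside 18.6% and 8.71% of all genes, since Plod3 was then at -0.73.

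Of 9 genes of procollagen secretion and processing, 1 was higher and 0 lower by 1.5-fold, beside 16.9% and 6.01% of all genes. It was Adamts3, a procollagen N-proteinase, at 11.9 and 18.0 CPM (0.59, 0.29 to 0.90). Its relative Adamts2, which trims the N-propeptides of type I and III procollagen, followed at 68.7 and 92.9 CPM (0.44). The lowest were Pcolce, an enhancer of C-propeptide removal, at 39.4 and 29.3 CPM (-0.43), and Bmp1, the C-proteinase itself, at 25.6 and 20.4 CPM (-0.33). Of 8 collagen receptor and uptake genes, 0 were past 1.5-fold, beside the same shares of all genes. Itga11, the α11 integrin subunit, was at 3.21 and 4.59 CPM (0.50, -0.08 to 1.14) and Mrc2, the endocytic collagen receptor, at 28.5 and 38.2 CPM (0.42). Lowest were the lysosomal collagenase Ctsk at 41.2 and 29.2 CPM (-0.50) and the integrin subunit Itga2 at 21.6 and 16.0 CPM (-0.43). In the cells with at least 10 marker UMIs Itga2 was at -0.35 (-0.72 to 0.015), an interval that includes 0.

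In endothelial cells, Col5a2 itself was at a log2 ratio of 0.18 (-0.01 to 0.37) between the libraries, an interval that includes 0. Col1a1 was higher, from 6.52 CPM in the wild type to 12.3 CPM in the Mfap2-/- library (0.89, 0.38 to 1.48), and was the 1 chain of 5 past 1.5-fold there. Among all 13636 genes measured in these cells 11% were higher and 12.9% lower by that much. The endothelial Col1a1 ratio was the same as that of the cells outside both gates, from 6.55 to 12.2 CPM (0.89, 0.72 to 1.08). The intervals of Col1a2 (0.12), Col3a1 (0.31) and Col5a1 (-0.02) in endothelial cells included 0.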

How the data were processed

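Single-cell libraries of non-parenchymal liver cells, 1 per genotype, were made with Chromium Single Cell 3′ v3 chemistry, per the labels' protocols. The deposited matrices hold raw UMI counts per gene and barcode. Their header names Cell Ranger 7.0.1, while the submitters' processing notes name Cell Ranger 3.1.0, Seurat and mm10. Strand, intronic reads and earlier cell filters are not given in the sources used here. The lowest total per barcode was 500 UMIs in both libraries.

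Barcodes under 200 genes or over 20% mitochondrial UMIs were left out. The highest Scrublet scores (scanpy 1.11.5) were removed at 0.8% per 1000 cells, which took 1034 wild-type and 1295 Mfap2-/- cells. The mesenchymal gate was taken first, and every other class needed at least 3 UMIs of its 4 markers and at least 2/3 of all gates' marker UMIs. Sub-gates needed 2 UMIs and the same part. UMIs were summed per class and library and scaled to 1e+06. Log2 ratios had 1 count added to each sum, and a gene was counted past 1.5-fold if the libraries held at least 20 of its UMIs. Intervals are exact Poisson (levels), Clopper-Pearson (shares) and exact conditional (ratios), at 95%. They cover counting error only. No test between genotypes was run, since each has 1 library.

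Gene identifiers were matched to GENCODE M21 (32158 of 32285, 99.6%), and 3 of the 5 genes to the RefSeq promoter table. The 5 genes, the gates and the gene lists were chosen with earlier results of these data known. Of each list the 2 highest and 2 lowest ratios were named, together with the 10 genes most and the 5 least like the members, of which 1 is not reported here. The interval step was tested on simulated counts. Alternatives changed the doublet step, the cell filter, the gate, the scaling, the summing, the correlation measure and the count minimum.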

Additional observations from a re-analysis of the deposited data

Results flagged for a closer look

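The log2 ratio of Col1a2, Mfap2-/- over wild type, pointed in opposite directions in different classes of cells, with intervals that excluded 0 on both sides. It was -0.13 in mesenchymal cells, where Col1a2 went from 348 CPM in the wild type to 318 CPM. That direction was not stable, since it changed in 5 of 14 alternatives. The median over single cells with at least 10 marker UMIs was also higher in the Mfap2-/- library, 670 against 571 CPM. The log2 ratio was 0.41 in macrophages and monocytes, where Col1a2 was at 7.21 and 9.59 CPM, and 0.87 in neutrophils, at 5.71 and 10.7 CPM. The levels of these immune classes are those of the cells outside the mesenchymal and endothelial gates as a whole, 7.02 and 9.24 CPM. The difference between the classes was not tested, and the part of background RNA in it was not tested.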

How the results depend on the processing

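No paired analysis was possible because each genotype has 1 library, and for the same reason no library could be left out in turn. Under 14 alternatives, 3 of them chosen after seeing the data (without the richest cells, the gate of 10 above every other class, the stellate sub-gate), the log2 ratio lay between 0.097 and 0.59 for Col1a1, 0.0075 (thinned) and 0.86 (without cells of another class) for Col5a1, 0.31 and 0.85 for Col5a2, and 0.0032 and 0.42 for the sum, all above 0. Col3a1 lay between -0.10 and 0.50, below 0 in the stellate sub-gate alone. Col1a2 changed direction in 5 alternatives: it was at 0.083 without doublet removal, 0.082 with all barcodes, 0.026 without the 5 richest cells, 0.088 as a mean over cells and 0.12 when thinned.

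The summed ratio was 0.35 without doublet removal, 0.35 with all barcodes, 0.19 with a gate of 2 UMIs, 0.013 with at least 2 of the 4 marker genes, 0.30 without cells holding 3 or more UMIs of another class's markers, 0.32 without the 5 richest cells, 0.20 with the gate of 10 above every other class, 0.0032 in the stellate sub-gate, 0.022 by median of ratios, 0.36 as a mean over cells and 0.42 when thinned. The cause of these moves was not tested.

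The gates held 89.0% and 85.3% of all chain UMIs in the wild-type and the Mfap2-/- library without doublet removal, 88.9% and 85.3% with all barcodes, 89.8% and 83.6% with a gate of 2, 87.0% and 79.4% with a gate of 10, 86.6% and 80.9% with at least 2 marker genes and 17.3% and 16.5% without cells of another class. Cells with a UMI of Col1a1, Col1a2, Col3a1, Col5a1 and Col5a2, in that order, made up 23.3, 23.6, 27.0, 13.0 and 19.8% in the wild type and 32.4, 28.7, 37.3, 18.0 and 24.6% in the Mfap2-/- library with a gate of 2. They made up 80.2, 79.8, 86.6, 58.9 and 71.5% in the wild type and 86.7, 85.1, 91.5, 75.4 and 80.2% in the Mfap2-/- library with a gate of 10, 51.2, 51.7, 59.6, 36.1 and 45.9% in the wild type and 56.1, 53.2, 63.2, 42.0 and 47.5% in the Mfap2-/- library with at least 2 marker genes, and 69.6, 69.6, 74.8, 45.2 and 65.2% in the wild type and 72.3, 73.2, 78.6, 58.0 and 65.2% in the Mfap2-/- library without cells of another class. Thinned to 1000 UMIs the shares were 16.1, 18.1, 23.7, 7.61 and 7.43% in the wild type and 21.8, 20.8, 26.6, 6.83 and 10.9% in the Mfap2-/- library. These alternatives changed which cells were admitted or how many UMIs each kept, and what moved the shares was not tested.

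The median r of the pairs was 0.54 and 0.63 with a gate of 10, 0.39 and 0.47 with the gate of 10 above every other class, 0.28 and 0.49 without cells of another class and 0.32 and 0.38 when thinned. Of all genes, 12.4% were lower by 1.5-fold with no count minimum. Past a ratio of 5 to 4, 34.4% were higher and 17.8% lower. Depth limits the low classes most: outside the mesenchymal and endothelial cells a chain's level rested on few UMIs, such as 18 Col1a1 UMIs in wild-type B cells, and Col5a1 there cannot be ordered between classes.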

Other observations

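A split of the endothelial cells by Stab2, a scavenger receptor of sinusoidal endothelium, and Vwf (von Willebrand factor), of larger vessels, was chosen after the values were seen. Cells with Stab2 and no Vwf, 683 in the wild type and 1209 in the Mfap2-/- library, had Col5a2 at 45.8 CPM (38.4 to 54.2) and 50.5 CPM (45.7 to 55.5). Cells with both, 286 and 184, had it at 82.5 CPM (70.5 to 95.9) and 113 CPM (98.5 to 128). Cells with Vwf and no Stab2, 80 and 65, had it at 37.1 CPM (22.9 to 56.7) and 118 CPM (92.3 to 149). Col5a2 was thus present in each of the 3 groups, with the lowest and the highest value both in the small group with Vwf alone. Col5a1 had 12 UMIs in all wild-type and 24 in all Mfap2-/- endothelial cells.

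Of the 5 cells richest in chain UMIs in the Mfap2-/- library, 1 passed the portal fibroblast sub-gate, with 122 Col5a2 UMIs beside 131 of Col1a1. In the richest Mfap2-/- cell these were 40 and 216, and in the richest wild-type cell 75 and 489.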
